A study of Mus musculus with 12 samples.

Results

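The Mef2 genes code for a small family of transcription factors, and their transcripts were followed here across mouse fibroblasts that had been given MyoD, Myf5, myogenin or no muscle factor. All probe sets that the array's probe-to-gene table assigns to the symbols Mef2a, Mef2b, Mef2c or Mef2d were taken, which gave 9 of the 12422 probe sets that are not array controls, for 4 of the 8251 genes that the table names. The cells were 2C5/7, a line derived from mouse embryonic fibroblasts that lacks functional MyoD and Myf5 genes. That loss was shared by all 4 groups. A retrovirus carried MyoD, Myf5 or myogenin under the viral long terminal repeat, followed by an internal ribosome entry site and hrGFP, a green fluorescent protein, and the hrGFP group received the virus with hrGFP alone. Each group had 3 arrays (MG_U74Av2, total RNA), numbered 3, 4 and 5 for MyoD, Myf5 and hrGFP and 2, 3 and 6 for myogenin. Myogenin and hrGFP are the controls according to the labels. Cells were sorted on fluorescence without cloning to an estimated purity of 75 to 85% and grown adherent in DMEM with 10% fetal calf serum. The labels do not say whether numbered samples were cultured separately, and the p-values then reflect only how far these samples differ, which may be technical.

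MEF2 proteins are MADS-box factors that bind an A/T-rich DNA element found in front of many muscle genes. In myoblasts they act together with the MyoD family of basic helix-loop-helix factors, which bind E-boxes, and both classes of factor can act on each other's genes. Class IIa histone deacetylases hold MEF2 proteins in a repressive state, and p38 MAP kinase, calcineurin and calcium-dependent kinases release or activate them. In the mouse, Mef2c is needed for heart development and for sarcomere integrity in skeletal muscle. Mef2a is needed for the normal function of the postnatal heart, Mef2d has a muscle-specific splice form, and Mef2b is the most divergent member and is known for its role in B cells.

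The sequences around the annotated starts of Mef2a and Mef2c are shown because these were the Mef2 genes with the largest differences between MyoD and hrGFP cells. They come from RefSeq with GRCm38.p6 and run from 250 bases before a start to 50 bases after it, 5' to 3' on the gene's strand. All 4 genes were matched, with 6 such windows. The Mef2a window is chr7:67372809-67373108 on the minus strand, inside the annotated span of the gene, and the Mef2c window is chr13:83503784-83504083 on the plus strand, the first of 3 for that gene. Capitals mark a match to the MEF2 consensus in Mef2a and E-boxes of the form CANNTG in Mef2c.
Mef2a: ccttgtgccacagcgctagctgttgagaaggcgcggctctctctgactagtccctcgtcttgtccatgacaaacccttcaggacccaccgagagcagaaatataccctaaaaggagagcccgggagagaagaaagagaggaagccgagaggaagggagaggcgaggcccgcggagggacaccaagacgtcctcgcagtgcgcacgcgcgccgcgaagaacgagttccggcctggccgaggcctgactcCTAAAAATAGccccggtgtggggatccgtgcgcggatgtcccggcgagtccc
Mef2c: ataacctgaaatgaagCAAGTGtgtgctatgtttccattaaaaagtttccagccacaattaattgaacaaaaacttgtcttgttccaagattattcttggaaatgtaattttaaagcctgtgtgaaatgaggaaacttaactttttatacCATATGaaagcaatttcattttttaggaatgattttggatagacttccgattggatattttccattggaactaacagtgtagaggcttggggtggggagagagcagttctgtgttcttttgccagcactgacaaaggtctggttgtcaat

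Both strands were searched for the E-box CANNTG, for its form CAGCTG, which lies within it, and for the MEF2 consensus. The Mef2a window held 1 MEF2 consensus match, CTAAAAATAG, from base -2 to base 8 around the start, and no CANNTG. A MEF2 consensus match occurred in 3.19% of 32851 mouse windows of this length. The printed Mef2c window held 2 E-boxes, CAAGTG at -234 to -229 and CATATG at -100 to -95, and the third Mef2c window held 1. Mef2b had 2, CATCTG at -28 to -23 and CAGGTG at 44 to 49, and Mef2d had none. CANNTG occurred in 72.3% of all windows and CAGCTG in 16.3%. CAGCTG was in 0 of the 6 Mef2 windows. These matches describe the letters in the windows only.

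In that annotation Mef2a spans chr7 from 67231163 to 67376456, Mef2b chr8 from 70152761 to 70167488, Mef2c chr13 from 83504017 to 83667079 and Mef2d chr3 from 88141941 to 88172091. The positions of the probes themselves were not used here. A probe set was tested where its signal exceeded 15 in at least 3 of the 12 arrays, and 8485 probe sets passed. Of the 9 Mef2 probe sets, 4 passed, 1 for each gene. Mef2a (93852_at), Mef2b (93417_at) and Mef2d (104241_at) were above the filter on all 12 arrays. Mef2c (104590_at) was above it on 4 arrays, namely MyoD 3, MyoD 4, myogenin 3 and myogenin 6, so it entered the test through those 2 groups. The other 5 probe sets, 1 each for Mef2a and Mef2b and 3 for Mef2c, stayed low and are described after the tested ones.

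The arrays differed in brightness, with a trimmed mean signal between 41.4 (hrGFP 4) and 103 (Myf5 5), so the differences were computed after quantile normalization. The MyoD 5 and hrGFP 5 arrays stood apart in RNA quality measures. The ratio of 3' to 5' probe sets was 25.7 and 37.6 for beta-actin and 32.4 and 33 for Gapdh on MyoD 5 and hrGFP 5, against 0.968 to 1.11 and 0.786 to 1.03 on the other 10 arrays. Array batches, read from the chip lot and day of hybridization, put replicates 3 and 4 of MyoD, Myf5 and hrGFP together, replicate 5 of these groups together, and the 3 myogenin arrays by themselves. Batch and group therefore cannot be told apart for myogenin. The information files deposited with Myf5 5 and hrGFP 5 carry the same laboratory code, although the names beside it match the titles and no pair of arrays had identical signals. Both were kept under their titles, and the Mef2a result is given without each of them and without all arrays numbered 5. Fibroblast markers were present throughout. Of 14 listed, 11 in MyoD, 13 in Myf5, 13 in myogenin and 12 in hrGFP cells were above the filter on all 3 arrays. The probe set for Myod1 read 41.3 to 54.1 in MyoD cells and 38.4 to 58.6 in hrGFP cells, and that for Myf5 read 27.4 to 125 in Myf5 cells and 27.1 to 143 in hrGFP cells. Neither factor could thus be checked with these probe sets, and whether the viral transcripts hold the probed parts was not tested. The Myog probe set read 89.2 to 122 in myogenin cells and 24.2 to 53.1 in hrGFP cells, a log2 difference of 1.12 ± 0.47 (SE) that did not pass (adjusted p = 0.386, limma). In MyoD cells the same probe set read higher than in myogenin cells, at 165 to 443.

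**Figure D1:**
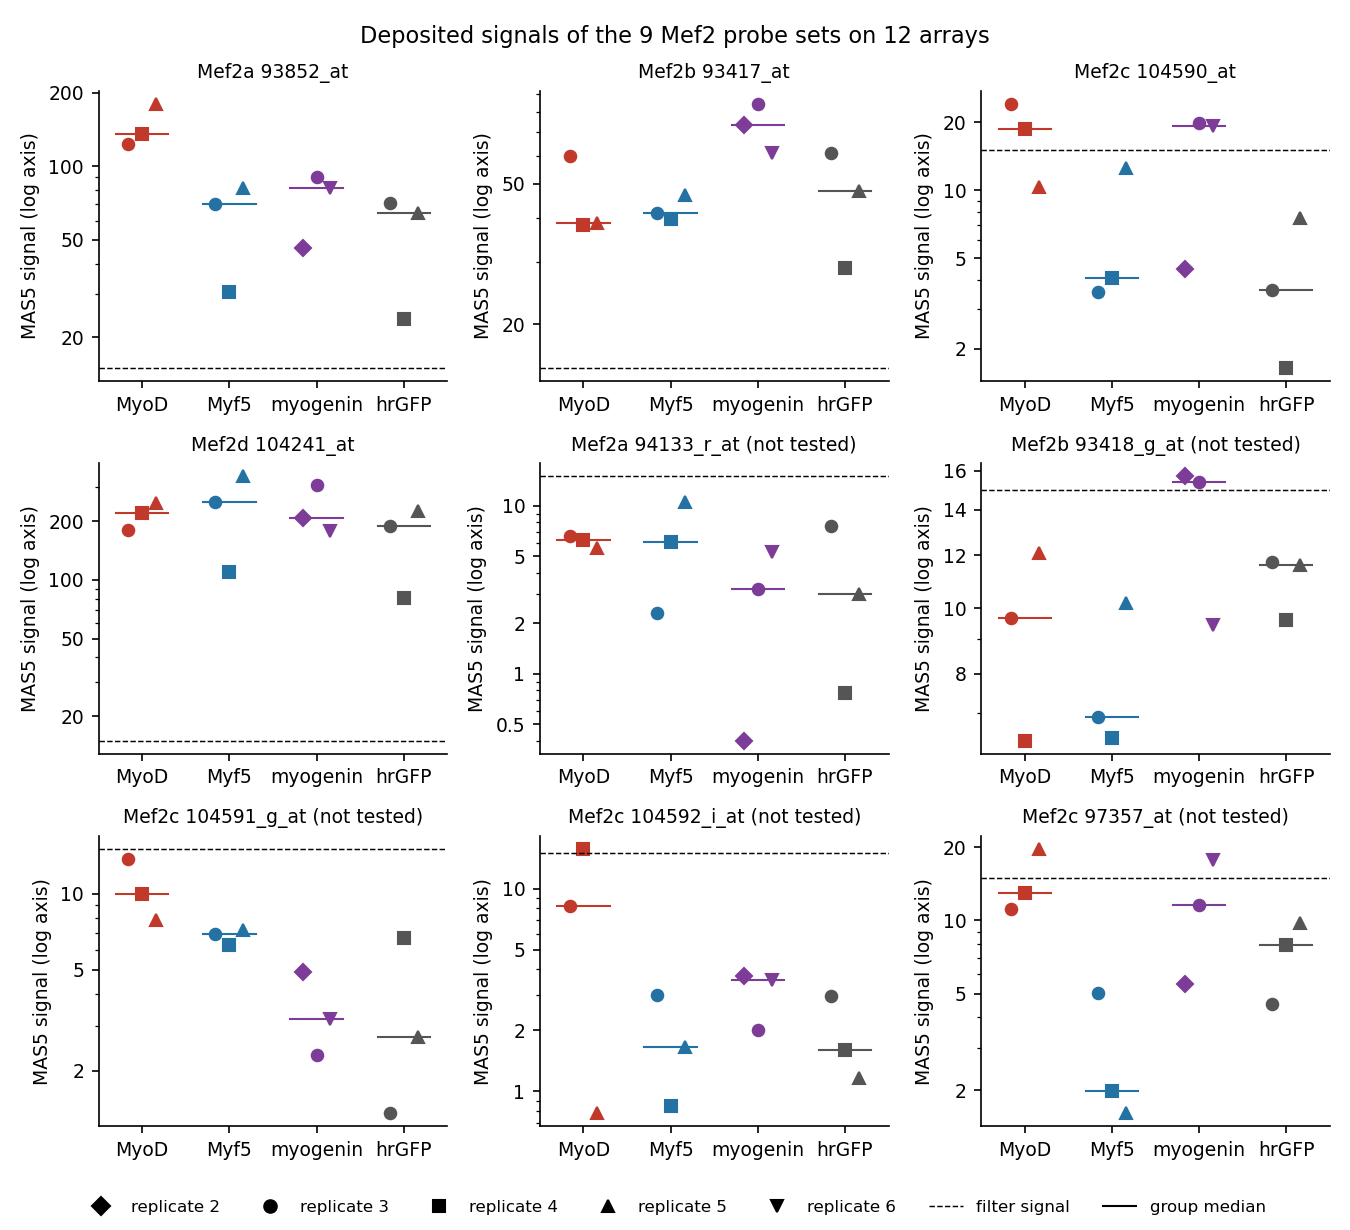
Deposited MAS5 signals (log axis) of the 9 Mef2 probe sets in MyoD, Myf5, myogenin and hrGFP cells, 1 point per array with its replicate number as the symbol, the group median as a bar and the filter signal of 15 as a dashed line. The 3 MyoD arrays of Mef2a 93852_at lie between 123 and 180, above the other 9 arrays, which reach 90.4.

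Mef2a was the Mef2 gene that rose in MyoD cells. Its signals were 123, 136 and 180 in MyoD cells (arrays 3, 4 and 5). They were 69.9, 30.7 and 81.7 in Myf5 cells, 46.3, 90.4 and 81.5 in myogenin cells (arrays 2, 3 and 6), and 70.6, 23.8 and 64.4 in hrGFP cells. Every MyoD array was above each of the other 9 arrays, while the Myf5, myogenin and hrGFP arrays overlapped one another. The low readings on Myf5 4 and hrGFP 4 came from the 2 arrays with the lowest trimmed mean signals, 48.1 and 41.4.

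After normalization the Mef2a level was 7.28 ± 0.15 in MyoD cells, 5.90 ± 0.24 in Myf5 cells, 6.13 ± 0.44 in myogenin cells and 5.86 ± 0.33 in hrGFP cells (log2, SD, n = 3 each). The gap was still open on this scale, with the lowest MyoD array at 7.15 and the highest of the other 9 at 6.46. The log2 difference between MyoD and hrGFP cells was 1.42 ± 0.27 (SE), a 2.67-fold higher level with a 95% interval of 0.83 to 2.00 on the log2 scale (adjusted p = 0.0467, limma with Benjamini-Hochberg adjustment). It was thus 1 Mef2 probe set of the 4 tested that passed, where 0.412% of all probe sets tested (35 of 8485, all higher in MyoD cells) did. By p-value Mef2a was number 34 of the 8485, and 66 probe sets (0.778%) had a difference at least as large and in the same direction.

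The Mef2a call lay close to the threshold. The difference stayed between 1.11 and 1.53 under the 29 alternatives tried, and the adjusted p ranged from 0.0231 to 0.915 and passed in 7. With the replicate number as a block, the difference was 1.45 and the adjusted p 0.051. The call was lost on leaving out any single array other than myogenin 2. The adjusted p was then 0.145 without MyoD 3, 0.272 without MyoD 4 and 0.115 without MyoD 5. It was 0.0811, 0.0641 and 0.0892 without Myf5 3, 4 and 5, and 0.0965, 0.242 and 0.0604 without hrGFP 3, 4 and 5. It was 0.0825 without myogenin 3 and 0.053 without myogenin 6, against 0.0325 without myogenin 2. Without both arrays of high 3' to 5' ratio the difference was 1.46 (adjusted p = 0.0742), and without all 3 arrays numbered 5 it was 1.45 (adjusted p = 0.117). On the normalized values, it was 1.52 between the 2 MyoD and 2 hrGFP arrays of the first batch and 1.22 between the single arrays of the second.

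**Figure D2:**
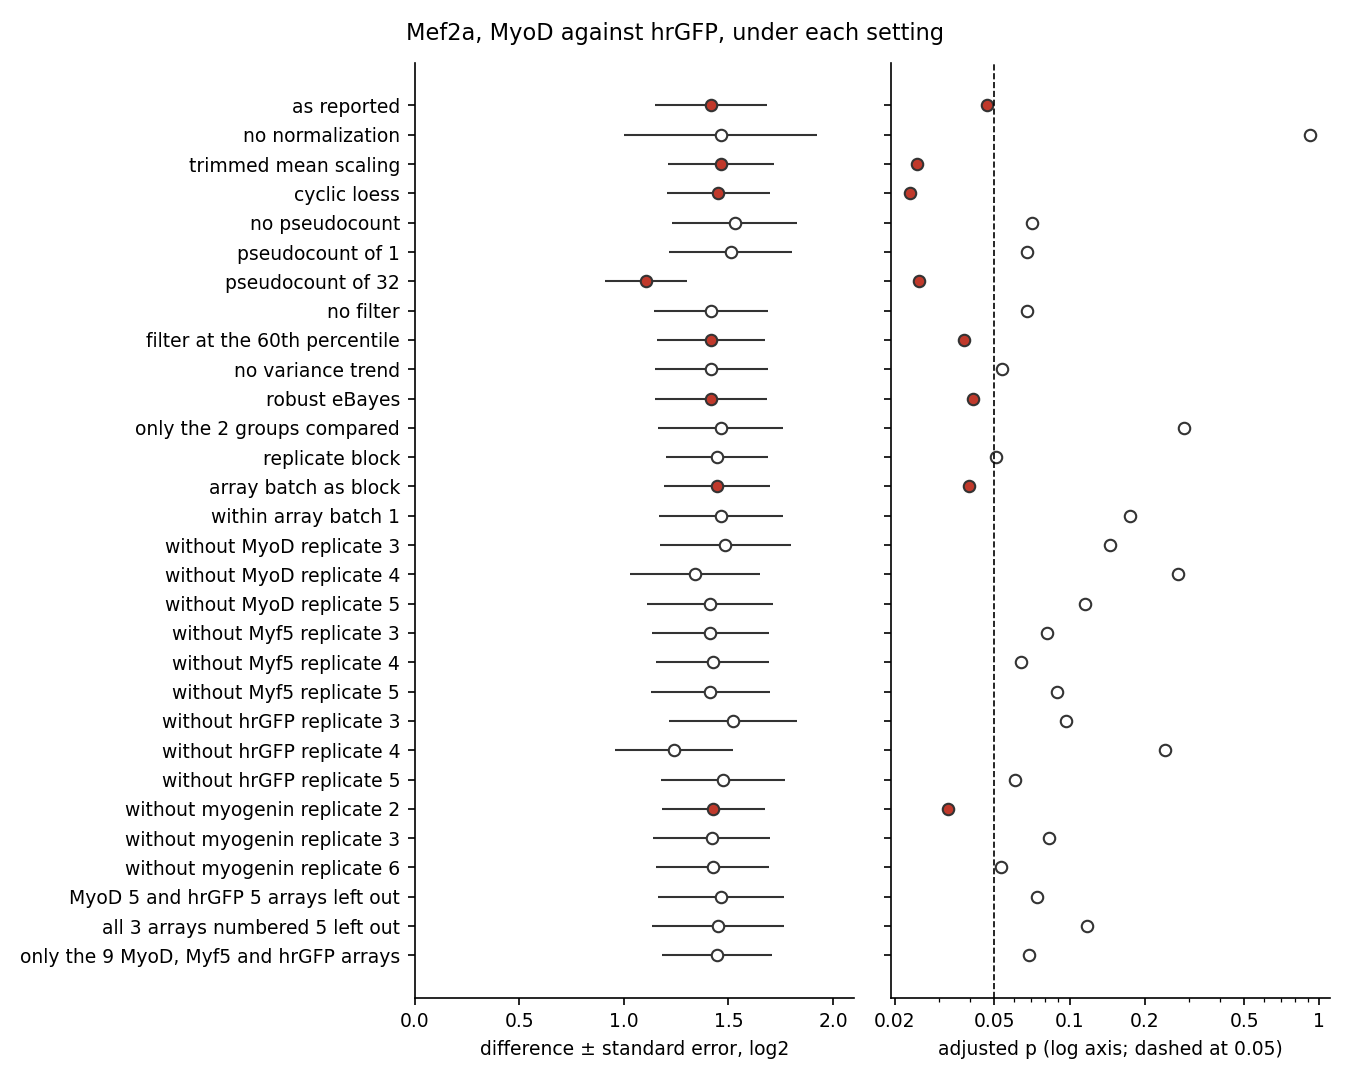
Mef2a in MyoD against hrGFP cells as reported and under each alternative, with the log2 difference and its standard error on the left and the adjusted p (log axis, line at 0.05) on the right. The differences all lie between 1.11 and 1.53, while the adjusted p falls on either side of the line.

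Mef2a did not pass in any other comparison. MyoD cells were 1.38 ± 0.27 above Myf5 cells (SE; adjusted p = 0.0849, limma) and 1.15 ± 0.27 above myogenin cells (adjusted p = 0.131), without overlap between arrays in either case. The difference from Myf5 cells passed under 1 alternative, a pseudocount of 32, at 1.08 (adjusted p = 0.0418). Myf5 cells differed from hrGFP cells by 0.04 (95% interval -0.55 to 0.63, adjusted p = 0.994) and myogenin cells by 0.27 (-0.32 to 0.85, adjusted p = 0.683). The difference between Myf5 and myogenin cells was -0.23 (adjusted p = 0.864). Of all probe sets tested, 0.224% passed between MyoD and Myf5 cells and 0.412% between MyoD and myogenin cells. The shares were 0.0118% between Myf5 and hrGFP cells, 0.13% between myogenin and hrGFP cells and 0.0354% between Myf5 and myogenin cells. No Mef2 probe set was among them in these 5 comparisons. At an unadjusted p under 0.05, Mef2a and Mef2c passed both for MyoD against hrGFP (3.55% of all did) and for MyoD against Myf5 (3.71%). Mef2c passed the filter on no hrGFP or Myf5 array, so the filter favours that direction for it and its place in these counts supports nothing. Mef2a passed for MyoD against myogenin (13.8%) and Mef2b for Myf5 against myogenin (9.18%). None did for Myf5 against hrGFP (3.01%) or myogenin against hrGFP (11.5%).

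The summed signal of skeletal muscle markers, like the Mef2a signal, read highest in MyoD cells. Of 9 such markers on the array, 7 were above the filter on all arrays in MyoD cells, 2 in Myf5 cells, 6 in myogenin cells and 2 in hrGFP cells. Their summed signal was 1430 to 1970 in MyoD, 94.8 to 351 in Myf5, 294 to 714 in myogenin and 78.8 to 137 in hrGFP cells. Among them was Acta1, skeletal muscle actin, whose signal averaged 1060 in MyoD cells and 11.4 in hrGFP cells. Not every marker went this way. Ckm, muscle creatine kinase, averaged 10.8 in MyoD, 23.7 in Myf5, 36.2 in myogenin and 17.9 in hrGFP cells. Des averaged 29.3 in MyoD and 28.7 in myogenin cells, and Actn2 was above the filter on 0 of 12 arrays. The part of these markers in the Mef2a result was not tested. In RNA from whole populations, a larger share of cells with a transcript and more of it per cell cannot be told apart.

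Mef2c was low everywhere, with its highest mean in MyoD cells and a median signal of 18.6 in MyoD and 19.2 in myogenin cells. The signals of 104590_at were 24.1, 18.6 and 10.3 in MyoD cells, 3.56, 4.11 and 12.5 in Myf5 cells, 4.5, 19.8 and 19.2 in myogenin cells and 3.61, 1.64 and 7.56 in hrGFP cells. The MyoD arrays lay above all hrGFP arrays, and the MyoD 5 array lay below Myf5 5 in the deposited signals. Within the myogenin group, array 2 read near the hrGFP arrays and the other arrays near MyoD 4.

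The normalized Mef2c level was 4.66 ± 0.46 in MyoD, 3.62 ± 0.34 in Myf5, 4.13 ± 0.67 in myogenin and 3.36 ± 0.37 in hrGFP cells (log2, SD, n = 3 each). The log2 difference between MyoD and hrGFP cells was 1.29 ± 0.40 (SE), with a 95% interval of 0.43 to 2.15, and did not pass (adjusted p = 0.596, limma). The other differences were 1.03 for MyoD against Myf5 (adjusted p = 0.937), 0.53 for MyoD against myogenin (adjusted p = 0.539) and 0.77 for myogenin against hrGFP (adjusted p = 0.475). Myf5 cells differed by 0.26 from hrGFP cells (adjusted p = 0.973) and by -0.51 from myogenin cells (adjusted p = 0.75). Since most of these signals lay near the pseudocount of 6.33, the size of the MyoD difference moved with it, being 2.35 with none and 0.51 with a pseudocount of 32, and it passed with neither. It was 1.76 between the arrays of the first batch and 0.35 between the single arrays of the second, which are those with the high 3' to 5' ratios.

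Mef2d was well above the filter in all 4 groups. Its signals were 180, 219 and 248 in MyoD cells, 250, 110 and 339 in Myf5 cells, 208, 307 and 177 in myogenin cells and 188, 80.6 and 226 in hrGFP cells. In the deposited signals every group overlapped every other. The normalized levels were 7.82 ± 0.25 in MyoD, 7.72 ± 0.27 in Myf5, 7.83 ± 0.21 in myogenin and 7.34 ± 0.14 in hrGFP cells (log2, SD, n = 3 each). On that scale all MyoD and all myogenin arrays lay above the hrGFP arrays, by a mean of 0.48 ± 0.22 (SE) in each case (95% intervals -0.01 to 0.97 and -0.00 to 0.97). Neither difference passed (adjusted p = 1 for MyoD and 0.437 for myogenin, limma), nor did that of 0.38 between Myf5 and hrGFP cells (adjusted p = 0.973). The 3 groups that received a muscle factor lay within 0.11 of each other (adjusted p between 0.945 and 0.992).

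Mef2b was above the filter on all arrays and did not follow Mef2a. Its signals were 59.8, 38.2 and 38.8 in MyoD cells, 41.4, 39.8 and 46.3 in Myf5 cells, 73.5, 84.3 and 61.3 in myogenin cells and 61.1, 28.8 and 47.7 in hrGFP cells. The myogenin arrays read highest, with the lowest of them close to MyoD 3 and hrGFP 3. The normalized levels were 5.79 ± 0.34 in MyoD, 5.58 ± 0.37 in Myf5, 6.18 ± 0.12 in myogenin and 5.76 ± 0.11 in hrGFP cells (log2, SD, n = 3 each). The difference from hrGFP cells was 0.02 in MyoD cells (95% interval -0.52 to 0.57), -0.18 in Myf5 cells and 0.41 in myogenin cells, with adjusted p-values of 1, 0.973 and 0.528 in limma. Between the factors, it was 0.21 for MyoD against Myf5 (adjusted p = 0.937), -0.39 for MyoD against myogenin (adjusted p = 0.483) and -0.60 for Myf5 against myogenin (adjusted p = 0.491).

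**Figure D3:**
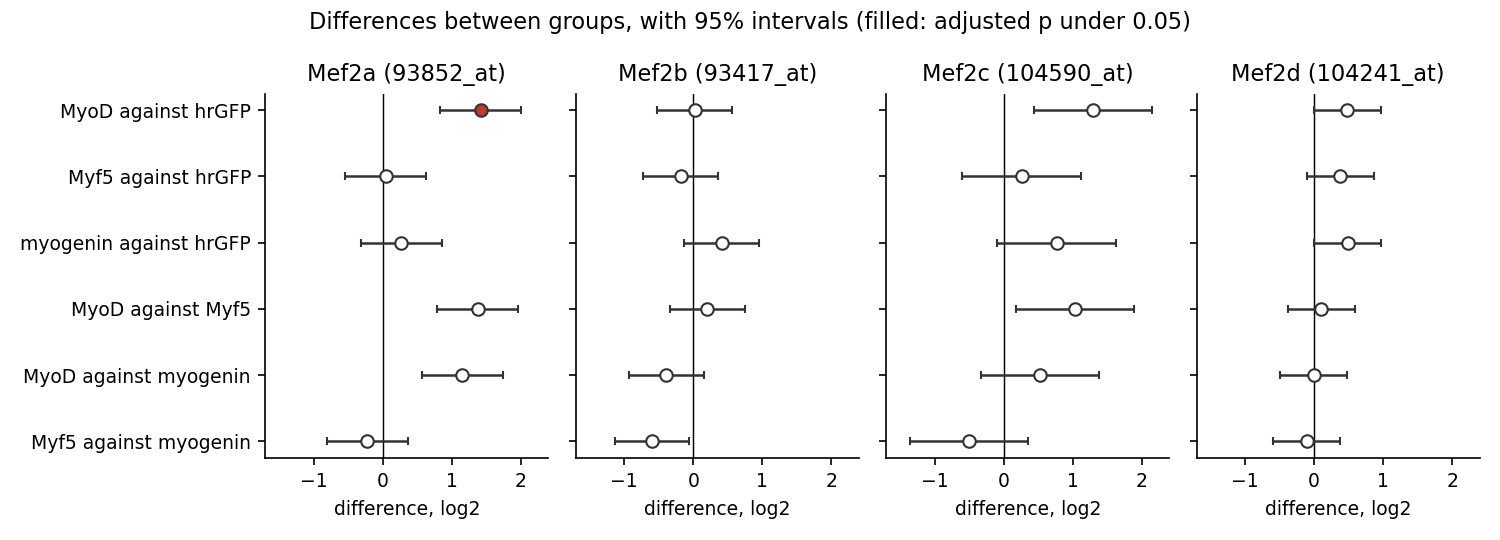
Log2 differences of the 4 tested Mef2 probe sets in the 6 pairwise comparisons, with bars for the 95% interval. The filled symbol marks the Mef2a difference of 1.42 between MyoD and hrGFP cells, the one that passed the adjusted threshold.

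Groups whose arrays did not overlap after normalization were also counted. Between MyoD and hrGFP cells, 3 of the 4 tested Mef2 probe sets (Mef2a, Mef2c and Mef2d) had all MyoD arrays higher, and 2.88% of all probe sets tested did. Mef2c had entered the test through its MyoD and myogenin arrays, so its separation is in part set by the filter. Between myogenin and hrGFP cells 2 did (Mef2b and Mef2d), against 8.13% of all, and between Myf5 and hrGFP cells 0 did, against 3.83%. Between MyoD and Myf5 cells 2 did (Mef2a and Mef2c), against 5.53%, and between MyoD and myogenin cells 1 did (Mef2a), against 11.8%. Between Myf5 and myogenin cells 1, Mef2b, had all Myf5 arrays lower, against 12.4%, and 0 had them all higher, against 13.9%. In the other 5 comparisons 0 Mef2 probe sets had all arrays lower. The shares of all probe sets that did were 2.4% for MyoD, 4.83% for Myf5 and 9.92% for myogenin against hrGFP, 4.23% for MyoD against Myf5 and 10.6% for MyoD against myogenin.

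**Figure D4:**
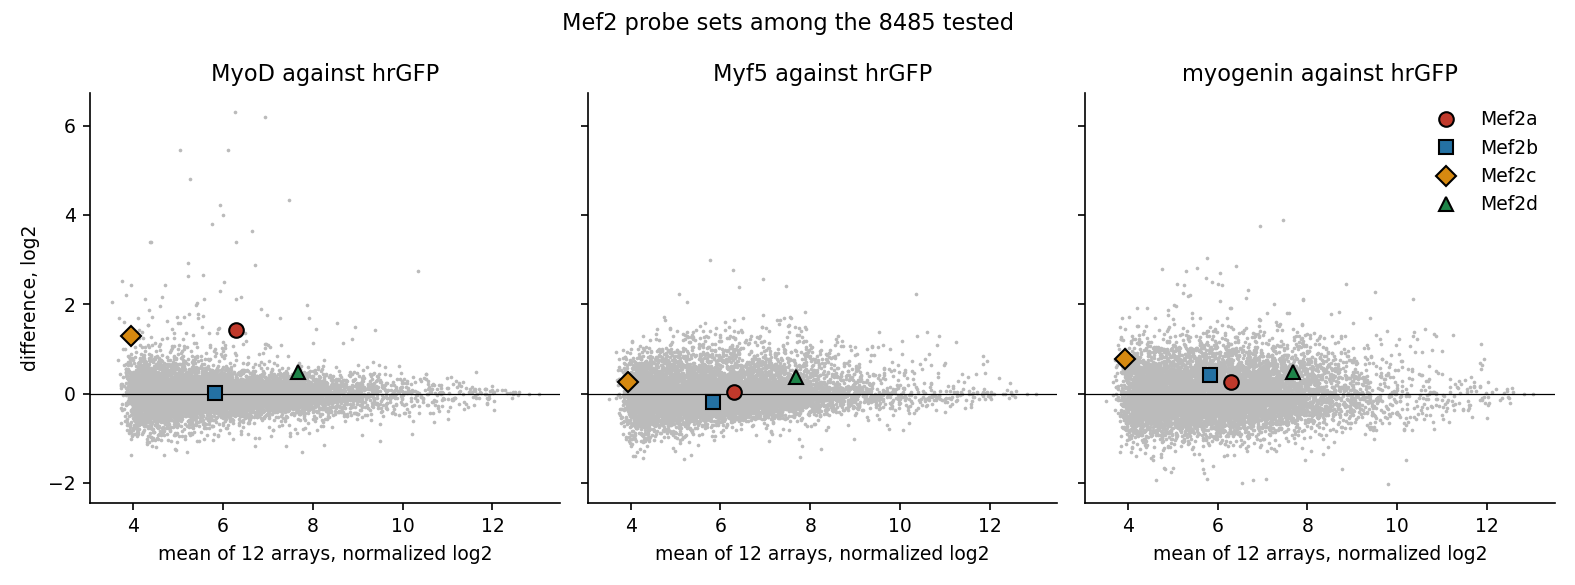
Log2 difference against mean log2 level for all tested probe sets (grey) in MyoD, Myf5 and myogenin cells against hrGFP cells, with the 4 tested Mef2 probe sets in colour. In MyoD cells Mef2a at 1.42 and Mef2c at 1.29 lie high among the grey points, and Mef2b at 0.02 lies in the middle.

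The order of the mean levels was MyoD, myogenin, Myf5 and hrGFP for both Mef2a and Mef2c. For Mef2b it was myogenin, MyoD, hrGFP and Myf5, and for Mef2d myogenin, MyoD, Myf5 and hrGFP, where myogenin and MyoD differed by 0.01. No pair of neighbours in any of these orders passed the test. For Mef2a, MyoD and myogenin, the neighbours farthest apart, differed by 1.15 (adjusted p = 0.131, limma).

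The 5 low probe sets were measured but not tested. Mef2a 94133_r_at read 0.4 to 10.6 over the 12 arrays, above the filter on none of them, and overlapped between MyoD and hrGFP cells. Mef2b 93418_g_at read 6.37 to 15.7 and exceeded the filter on 2 arrays, both of myogenin. Of the Mef2c probe sets, 104591_g_at read 1.36 to 13.7, 104592_i_at 0.781 to 15.7 and 97357_at 1.61 to 19.7. The letters g, i and r in such names mark probe sets that do not meet all of the array maker's usual design rules. In a fit without the filter, none of the 5 passed in any of the 6 comparisons.

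In that fit, the MyoD against hrGFP difference was positive for all 3 low Mef2c probe sets, at 0.80 ± 0.26 for 104591_g_at (SE; adjusted p = 0.698, limma), 0.76 for 104592_i_at and 0.62 for 97357_at (adjusted p = 1 for both). The 3 MyoD arrays of 104591_g_at, at 7.83 to 13.7, lay above the other 9 in the deposited signals, but overlapped hrGFP after normalization. For 97357_at the MyoD against Myf5 difference was 1.24 ± 0.31 (adjusted p = 0.382). The difference between MyoD and hrGFP cells was 0.46 for the second Mef2a probe set, 94133_r_at, and -0.15 for the second Mef2b probe set, 93418_g_at (adjusted p = 1 for both). The rise of Mef2a thus rests on a single probe set.

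Over the 12 arrays, Mef2a and Mef2c varied together most closely within the family, with a Pearson correlation of 0.81 between their normalized values. It was 0.569 for Mef2c and Mef2d and 0.474 for Mef2a and Mef2d. Mef2b stood apart, at -0.08 with Mef2a, 0.178 with Mef2c and 0.01 with Mef2d. The arrays share groups, batches and RNA quality, so these values describe this set of 12 arrays. Among the 6277 tested genes, those whose levels correlated best with Mef2a were Myh3 (embryonic myosin heavy chain, 0.933), Myl1 (a fast-muscle myosin light chain, 0.928), Tnnc1 (troponin C of slow and cardiac muscle, 0.916), Chrna1 (a subunit of the muscle acetylcholine receptor, 0.902) and Dipk2a (0.899). Their log2 differences between MyoD and hrGFP cells were 3.39, 4.22, 5.46, 2.44 and 2.51 (adjusted p between 5.09e-05 and 0.0181, limma). Since Mef2a set the 3 MyoD arrays apart, genes chosen for their correlation with it over the same arrays would differ in that direction, so these values are a description. Myh3 and Chrna1 were above the filter on 4 and 3 arrays, which included all 3 MyoD arrays.

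The genes closest to Mef2c were Myl4 (an atrial and embryonic myosin light chain, 0.908), Tpm2 (a tropomyosin, 0.903), Myom2 (a protein of the sarcomeric M-band, 0.903), Tmsb10 (an actin-binding thymosin, 0.897) and C1qtnf3 (0.867). Of these Myl4 passed between MyoD and hrGFP cells on 160487_at, at 4.00 (adjusted p = 0.00625, limma), while its other tested probe set, 100828_at, did not pass (adjusted p = 0.517) and was at 1.49 in myogenin against hrGFP cells (adjusted p = 0.0769). Tpm2 at 1.90, Myom2 at 1.60, Tmsb10 at 0.48 and C1qtnf3 at 2.11 did not pass (adjusted p of 0.0602, 0.359, 0.303 and 0.0658). Mef2b was followed most closely by Eral1, Adam3, Psd, Plcb1 and P2rx7 (0.849 to 0.888), none of which passed between MyoD and hrGFP cells. For Mef2d they were St3gal5, Spsb1, Brk1, Gnaz and Mcpt8 (0.78 to 0.861), of which Mcpt8 passed at 2.15 (adjusted p = 0.0213). Myom2 and Spsb1 were above the filter on 4 arrays each and Gnaz on 3. Genes near Mef2b, Mef2c and Mef2d were also chosen by correlation over the same arrays, so their differences are a description.

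None of the tested genes that are known to control MEF2 activity passed, and few probe sets of any kind did. A list of 40 regulators and cofactors held, among others, class IIa histone deacetylases, p38 and its kinases, calcineurin subunits, NFAT factors and acetyltransferases. Of these 40, 29 had a probe set assigned to them alone, which left out Hdac4 and Hdac9 of the class IIa deacetylases. The list had 24 tested members, and 0 of these rose or fell in any of the 6 comparisons. Of all probe sets tested, at most 0.412% did in any of them, so a count of 0 is near the share of all. On other tested probe sets in MyoD against hrGFP cells, Thra was at -0.70 (99077_at) and Mapkapk2 at -0.41 (160353_i_at), and neither passed. By the probe set of highest mean, the log2 differences in that comparison ran from -0.39 to 0.45 with a median of -0.00. The median of all probe sets tested was -0.01. Some SEs by the probe set of highest mean were wide, as for Map2k3 at -0.01 (SE 0.743) and Mapkapk2 at 0.11 (SE 0.785). Small differences therefore do not show that a gene was unchanged. By that probe set the largest were Prkaca (a catalytic subunit of protein kinase A) at 0.45, Ncoa3 (a nuclear receptor coactivator) at -0.39 and Map2k6 (a kinase that activates p38) at -0.38, each with an adjusted p of 1 in limma. At an unadjusted p under 0.05 the list had 0 members of 24 for MyoD against hrGFP (3.55% of all probe sets tested), 1 for Myf5 (Nfatc1, 3.01%) and 5 for myogenin (Hdac7, Map2k6, Nfatc1, Crebbp and Thra, 11.5%), where the medians were 0.13 for Myf5 and 0.21 for myogenin. Between the factors it had 1 for MyoD against Myf5 (3.71% of all), 3 for MyoD against myogenin (13.8%) and 2 for Myf5 against myogenin (9.18%), the last 3 counts being near those shares.

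Known muscle targets of MEF2 proteins rose in part. Of 24 listed, 16 were tested, and by the probe set of highest mean 5 rose in MyoD against hrGFP cells while 11 did not pass. Of all probe sets tested, 0.412% rose in that comparison. Counting a gene by any of its tested probe sets gave 7, since Actc1 (cardiac actin) and Smyd1 (a muscle methyltransferase) passed on another probe set. Actc1 was at 5.46 on 101028_i_at (adjusted p = 0.000192, limma), and its probe set of highest mean, 101029_f_at, had an adjusted p of 0.283. Smyd1 was at 1.70 on 101903_at (adjusted p = 0.0282) and at -0.64 on 101904_at (adjusted p = 1). The mean level of 101903_at over all arrays was 3.67, below the filter, which is 4.42 on the log2 scale. Only its higher arrays can have passed the filter, so the filter favours a rise in MyoD cells for it. Its place in the counts by any probe set, here and against Myf5 and myogenin cells, therefore supports little. The 5 genes were Tnnc1, Myl1, Tnni1 (slow troponin I, 3.63 ± 0.60), Myog (myogenin, 2.87 ± 0.47) and Eno3 (muscle enolase, 1.99 ± 0.37), with log2 differences and SE given and adjusted p-values of 5.09e-05, 0.00209, 0.0181, 0.0167 and 0.0436 in limma. The median difference over the 16 was 0.98, against -0.01 over all probe sets tested. Members that did not pass on any probe set included Myom2 at 1.60, Atp2a2 (a calcium pump of the sarcoplasmic reticulum) at 1.04, Des (desmin) at 0.92 and Ckm at -0.61. Several of the 16 are also targets of the MyoD family, and Myog is itself a member of it.

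How many targets passed depended on single arrays. With MyoD 3, MyoD 4 or hrGFP 3 left out, 2 passed. Omitting hrGFP 5 left 3, and omitting both MyoD 5 and hrGFP 5 gave 6. Tnnc1 and Myl1 passed in MyoD against hrGFP cells under all 29 alternatives. Myog was lost without MyoD 3, MyoD 4 or hrGFP 3 (adjusted p of 0.0956, 0.122 and 0.0869 in limma). Tnni1 was lost without the same arrays (0.12, 0.147 and 0.0627) and without hrGFP 5 (0.0507). Eno3 passed under 9 of the 29 and, of the single arrays, could be called only without MyoD 5 (adjusted p = 0.00631); without any other it lay between 0.06 and 0.248. In MyoD against Myf5 cells 2 of the 16 rose, where 0.224% of all probe sets tested did. By any probe set 4 rose, with Actc1 and with Smyd1, which the filter favours. Tnnc1 was at 3.86 and Myl1 at 3.70 (adjusted p of 0.00284 and 0.011, limma). The Myl1 call was lost without MyoD 3, MyoD 4, Myf5 3 or Myf5 4 (adjusted p of 0.0704, 0.11, 0.0642 and 0.0624). In MyoD against myogenin cells the same genes rose, again 2 and 4 by any probe set, where 0.259% of all probe sets tested did. Here Tnnc1 was at 3.02 and Myl1 at 3.20 (adjusted p of 0.0173 and 0.0235, limma). Both calls were lost without MyoD 3 (adjusted p of 0.0503 for Tnnc1 and 0.0528 for Myl1), MyoD 4 (0.13 and 0.141), myogenin 2 (0.106 and 0.146) or myogenin 3 (0.0714 and 0.102), and that of Myl1 also without MyoD 5 (0.0584).

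The 16 targets had a median difference of 0.24 in Myf5 against hrGFP cells and 0.63 in myogenin against hrGFP cells. Of them, 0 passed in either in limma, near the shares of all probe sets tested, 0.0118% and 0.13%. At an unadjusted p under 0.05 there were 2 and 5 of 16, against 3.01% and 11.5% of all probe sets tested. Between Myf5 and myogenin cells 0 passed (0.0354% of all did), with 1 at an unadjusted p under 0.05 (9.18% of all), both near the share of all. In Myf5 against hrGFP cells Tnnc1 was at 1.60 and Eno3 at 1.19 (adjusted p = 0.973 for both, limma). In myogenin against hrGFP cells Tnnc1 was at 2.44, close to the threshold (adjusted p = 0.0545), Tnni1 at 2.15 (adjusted p = 0.229) and Eno3 at 1.56 (adjusted p = 0.145). The 5 tested targets of MEF2 outside muscle were below 0 in MyoD against hrGFP cells, from -0.45 to -0.05. Nr4a1 was at -0.45, Klf4 at -0.39 and Jun at -0.33. Of the 5, 0 passed (0.412% of all did), also at an unadjusted p under 0.05 (3.55% of all). In myogenin against hrGFP cells 0 passed, with 2 at an unadjusted p under 0.05 (Klf4 at -0.78 and Rhob at 0.66, 11.5% of all). Rhob was also under it for MyoD and for Myf5 against myogenin cells. Of the MyoD family and its E protein partners, 7 were tested. Myog alone passed between MyoD and hrGFP cells, where 0.412% of all probe sets tested did. Tcf3, Tcf4 and Tcf12, which code for the E proteins, were at -0.09, 0.08 and -0.22 (adjusted p = 1 for each). At an unadjusted p under 0.05 the 7 held 1 for Myf5 against hrGFP cells (Tcf12 at -0.51, 3.01% of all). They held 2 for myogenin against hrGFP cells (Myod1 and Myog, 11.5% of all).

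**Figure D5:**
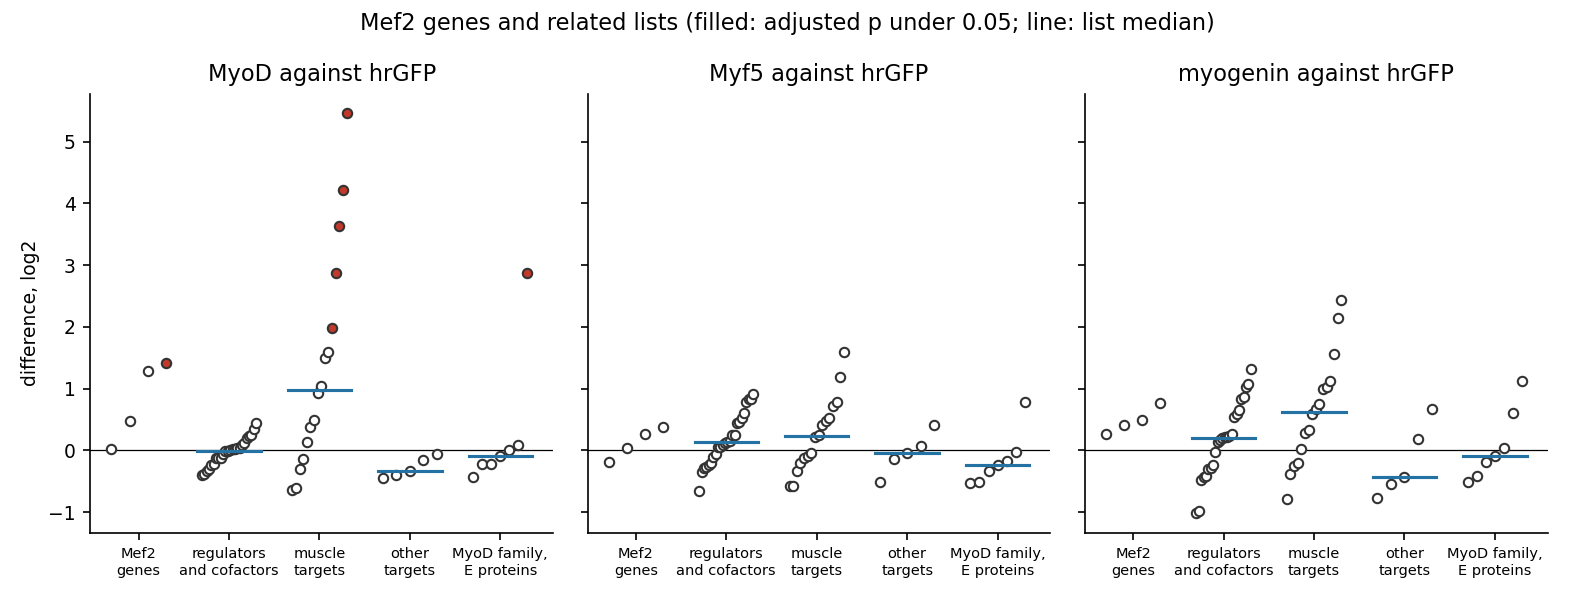
Log2 differences of MyoD, Myf5 and myogenin cells against hrGFP cells for the Mef2 genes and the 4 lists, with 1 point per tested gene, filled where the gene passed, and a line at each list's median. Filled points appear for Mef2a, for 5 muscle targets by the probe set of highest mean (with Myog also in the MyoD family list) and for no regulator or cofactor, all in MyoD cells.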

How the data were processed

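Total RNA was measured on 12 MG_U74Av2 arrays, and arrays were grouped by title. The deposited values are intensity signals per probe set, which came from MAS5 (version and target scaling not given in the sources used here) per the submitters' processing notes. The deposited table held 12488 probe sets, 66 of them controls. Of the other 12422, 10833 had 1 gene symbol in the platform annotation, 396 had several and 1193 were not listed; no gene was named from a probe set with several.

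A pseudocount of 6.33 (the 25th percentile) was added, log2 taken and arrays quantile-normalized. Probe sets above a signal of 15 (the 40th percentile) in at least 3 arrays were tested in limma 3.58.1 (R 4.3.3) with a variance trend over all 4 groups (8 residual degrees of freedom). Each of 6 comparisons was adjusted over 8485 probe sets by Benjamini-Hochberg, at 0.05. Fold changes on this scale understate those of low signals. The number of arrays, 3 a group, limits the precision. The scripts were tested on simulated data.

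For a gene in a list, the probe set with the highest mean was used. The text names every Mef2 probe set, the 5 genes most correlated with each, each list's called members or otherwise its 3 largest differences, and the MyoD family genes; a few list members named beside these were chosen after their values were seen. Members and lists were chosen with earlier results of these data known.

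For the replicate block, equal replicate numbers were taken to pair MyoD or Myf5 with hrGFP, while the reported fit had no pairing. Deviations from group means correlated at 0.496, 0.395 and 0.827 for MyoD and hrGFP. The values were 0.122, 0.332 and 0.107 for Myf5 and hrGFP and -0.01, 0.108 and 0.108 for MyoD and Myf5. The 0.827 belonged to MyoD 5 and hrGFP 5, the arrays that stood apart in RNA quality measures. For Myf5 and hrGFP, 0.122 and 0.107 were close to the 0.108 of MyoD and Myf5, and 0.332 was higher. These values do not decide whether Myf5 and hrGFP arrays were paired. Alternatives covered normalization, pseudocount, filter, variance model, blocks and arrays left out.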

Additional observations from a re-analysis of the deposited data

How the results depend on the processing

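Mef2a in MyoD against hrGFP cells kept its direction under all 29 alternatives and passed under 7: trimmed mean scaling, cyclic loess, a pseudocount of 32, a filter at the 60th percentile, robust eBayes, the array batch as a block, and without myogenin 2. It did not pass, which left 0 Mef2 probe sets called, without normalization (1.46, adjusted p = 0.915 in limma), without a pseudocount (1.53, 0.071), with a pseudocount of 1 (1.51, 0.0674), without the filter (1.42, 0.0673), without the variance trend (1.42, 0.0536) and with only the 2 groups (1.46, 0.287). The same held with the replicate block (1.45, 0.051), within array batch 1, normalized by itself (1.47, 0.174), without MyoD 5 and hrGFP 5 (1.46, 0.0742), without all 3 arrays numbered 5 (1.45, 0.117) and with only the 9 MyoD, Myf5 and hrGFP arrays (1.45, 0.0691), the last chosen after seeing the data. Leaving out single arrays gave 1.24 to 1.52, and 0 to 1 Mef2 probe sets called. A pseudocount of 32 raised the count for MyoD against Myf5 to 1 (Mef2a, 1.08). In the other 4 comparisons it stayed 0 under every alternative.

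Only small differences changed sign. Mef2d in MyoD against myogenin cells was 0.022 with trimmed mean scaling, 0.088 without MyoD 5 and hrGFP 5 and 0.087 without all arrays numbered 5, and -0.15 to 0.094 on leaving out single arrays. Such omissions also gave -0.16 to 0.17 for Mef2b in MyoD against hrGFP, -0.15 to 0.17 for Mef2a in Myf5 against hrGFP, -0.053 to 0.20 for Mef2d in MyoD against Myf5 and -0.21 to 0.047 for Mef2d in Myf5 against myogenin cells. The cause of these changes was not tested.

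With only the 2 groups, 2 muscle targets passed between MyoD and hrGFP cells, against 5 in the report. Between MyoD and myogenin cells, Tnnc1 and Myl1 were lost without a pseudocount (adjusted p of 0.0731 and 0.055, limma). Both were also lost with only the 2 groups (0.107 and 0.156), and Tnnc1 with a pseudocount of 1 (0.0502). The replicate block changed no other Mef2 call. No paired analysis was possible for myogenin because it shares only replicate number 3 with the other groups. Mef2c did not pass the filter, and so has no value, under the stricter filter, the blocks, batch 1 alone, the 9 arrays and, except for MyoD against myogenin, only the 2 groups. Signals near the filter limit what can be read of Mef2c.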
